A study of Mus musculus with 8 samples.

Results

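Germ cell genes are kept off in somatic cells, and 10 of them were followed here for the methylation of their starts in resting B and naive T lymphocytes: Dazl, Ddx4, Mael, Sycp1, Sycp3, Stk31, Hormad1, Tex101, Piwil1 and Tdrd1. They were chosen by name, with earlier results of these data known. They are 10 of the 21755 protein-coding genes of GENCODE M21 (GRCm38) on the 19 autosomes and X, and all 10 lie on autosomes. Whole-genome bisulfite sequencing had been done on spleen lymphocytes of C57BL/6J mice aged 6 to 8 weeks, an inbred strain, with no treatment or engineered allele named for any group. The groups were female CD43- B cells, female CD4+CD62L+ T cells, male CD43- B cells and male CD4+CD62L+ T cells, with cells pooled over animals. Each group of 2 samples had 1 file, so the spread between pools of 1 kind could not be measured, and a B and T cell difference was seen once in each sex. Transcription was not measured in the files used here, so whether the genes were silent in these cells was not tested.

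Most CpG-rich promoters stay free of methylation in every tissue, whatever the activity of the gene. A small set of germ cell genes is known as an exception: their CpG-rich promoters gain methylation around implantation and keep it in somatic tissues, while germ cells lose it. In mouse embryonic cells many of these promoters are also bound by a repressive complex that holds E2F6 and the MGA and MAX proteins, which recognise the E-box letters CACGTG.

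A methylation level is the percentage of methylated reads among all reads at the CpGs of a region, and only CpGs with 5 or more reads in all 4 files were used (18714703 CpGs). A promoter is the gene start, the 5' end of the gene record, with 1 kb to either side. A promoter was called CpG-rich where a 500 bp window in it had a ratio of observed to expected CpGs of 0.75 or more together with a GC content of 55% or more. It was called CpG-poor where no such window had a ratio of 0.48 or more, and intermediate otherwise. Mean autosomal depth was 14.6 to 17.7 reads per CpG in the 4 files, and the autosomal level was 79.5% to 80.7%. The 5 B cell marker promoters were all called lower in B than in T cells and 4 of 5 T cell marker promoters were called higher in B than in T cells, and at the principal transcript start all 5 were, Cd28 included.

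The sequences below show what these starts hold. All are on GRCm38, 5' to 3' on the strand of the gene, with each CpG in capitals. The first 5 are RefSeq promoters, from 250 bases before to 50 bases after the start: Stk31 (chr6:49395289-49395588, plus strand) as the member with the highest level within 1 kb of its start, Ddx4 (chr13:112652261-112652560, minus strand) and Sycp1 (chr3:102936051-102936350, minus strand) as starts at 93.9% or more in every file, Tdrd1 (chr19:56825959-56826258, plus strand) as a partly methylated start, and Dazl (chr17:50293571-50293870, minus strand). The last is the stretch inside the Dazl gene where methylation ends (chr17:50292989-50293288, minus strand).
Stk31: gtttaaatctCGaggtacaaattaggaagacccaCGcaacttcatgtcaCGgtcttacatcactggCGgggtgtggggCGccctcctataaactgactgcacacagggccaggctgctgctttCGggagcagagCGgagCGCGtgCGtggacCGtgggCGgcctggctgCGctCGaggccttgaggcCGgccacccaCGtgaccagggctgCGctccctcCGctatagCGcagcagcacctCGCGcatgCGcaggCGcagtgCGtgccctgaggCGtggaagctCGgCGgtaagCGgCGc
Ddx4: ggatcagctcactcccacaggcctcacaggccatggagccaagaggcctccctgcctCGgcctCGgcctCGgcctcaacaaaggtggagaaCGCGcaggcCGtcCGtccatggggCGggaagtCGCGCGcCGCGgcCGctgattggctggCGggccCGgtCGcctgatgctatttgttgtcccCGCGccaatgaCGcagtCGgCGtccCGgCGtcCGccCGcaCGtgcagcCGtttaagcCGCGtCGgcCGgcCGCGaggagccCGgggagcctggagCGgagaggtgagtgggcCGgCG
Sycp1: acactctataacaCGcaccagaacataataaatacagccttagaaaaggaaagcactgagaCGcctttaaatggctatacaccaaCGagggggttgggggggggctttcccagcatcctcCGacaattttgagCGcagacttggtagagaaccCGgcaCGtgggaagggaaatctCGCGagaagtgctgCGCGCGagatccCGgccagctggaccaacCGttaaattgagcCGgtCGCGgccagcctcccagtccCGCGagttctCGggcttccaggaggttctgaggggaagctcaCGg
Tdrd1: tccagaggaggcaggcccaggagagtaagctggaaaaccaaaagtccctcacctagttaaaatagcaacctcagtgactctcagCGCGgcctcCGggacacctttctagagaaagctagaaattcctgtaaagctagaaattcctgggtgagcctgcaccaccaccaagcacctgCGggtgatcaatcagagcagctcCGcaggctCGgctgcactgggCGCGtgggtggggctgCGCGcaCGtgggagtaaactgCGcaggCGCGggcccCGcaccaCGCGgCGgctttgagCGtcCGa
Dazl: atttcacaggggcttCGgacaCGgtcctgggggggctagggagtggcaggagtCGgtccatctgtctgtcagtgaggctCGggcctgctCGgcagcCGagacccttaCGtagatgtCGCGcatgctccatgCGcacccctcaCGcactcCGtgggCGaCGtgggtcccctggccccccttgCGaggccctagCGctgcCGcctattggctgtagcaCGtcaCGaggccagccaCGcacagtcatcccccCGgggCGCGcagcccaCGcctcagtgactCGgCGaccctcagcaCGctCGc
Dazl inside the gene: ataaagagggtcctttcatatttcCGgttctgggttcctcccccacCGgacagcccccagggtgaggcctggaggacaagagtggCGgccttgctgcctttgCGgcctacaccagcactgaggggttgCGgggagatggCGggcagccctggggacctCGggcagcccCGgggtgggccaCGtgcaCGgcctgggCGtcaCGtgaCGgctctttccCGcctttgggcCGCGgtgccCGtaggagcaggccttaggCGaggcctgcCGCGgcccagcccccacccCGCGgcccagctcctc

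Across these 300 bases the Stk31 promoter was methylated at 97.2% in female B, 97.1% in female T, 96.9% in male B and 96.9% in male T cells, over 29 CpGs. The 38 CpGs of the Ddx4 promoter stood at 97.0%, 97.9%, 96.7% and 94.3% in the same order of files. The 21 CpGs of the Sycp1 promoter stood at 96.7%, 97.9%, 98.7% and 93.9%. The 20 CpGs of the Tdrd1 promoter stood at 66.5%, 63.3%, 69.8% and 64.0%, the lowest of the 5. The 26 measured CpGs of the 28 in the Dazl promoter stood at 98.3%, 97.6%, 98.5% and 99.1%, whereas the 22 CpGs of the stretch inside the Dazl gene averaged 31.9%, 28.2%, 36.6% and 27.8%.

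All 10 members were methylated in B and T cells of both sexes. Within 1 kb of the gene start every member stood at 50% or more in all 4 files, 8 stood at 80% or more and 6 at 93% or more in all 4 files, and the median of the 10 member levels was 94.4%. With a minimum of 10 reads per CpG 9 members stood at 50% or more in all 4 files, and Dazl averaged 48.7%. Among all 21082 promoters measured, 33.0% stood at 50% or more in all 4 files, and the median promoter was at 14.6%. The promoters of the members held 683 such CpGs, with 325 to 2516 reads per file and gene.

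The contrast with other promoters of the same kind was large for the CpG-rich members, Dazl, Ddx4, Mael, Sycp1, Stk31, Hormad1 and Tdrd1. All 7 stood at 50% or more in all 4 files, against 0.929% of the 10657 CpG-rich promoters measured (99 promoters, the 7 members included). The members were chosen with earlier results of these data known, so the contrast is a description and not an independent test. The median of the CpG-rich class was 5.08%, and 90.3% of it stood at 20% or less in all 4 files. Dazl, the lowest of the 7 with a mean of 56.4%, stood at a level that 96 CpG-rich promoters reached or passed, Dazl included.

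**Figure D1:**
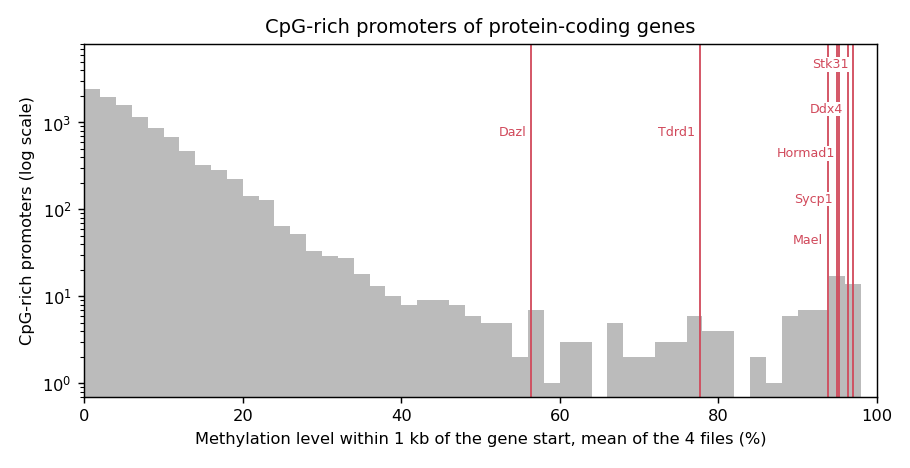
Methylation level of CpG-rich promoters, as the mean of the 4 files within 1 kb of the gene start (x axis, %), against the number of promoters in bins of 2 points (y axis, log scale). Red lines mark the 7 CpG-rich members, which stand at 56.4% (Dazl), 77.7% (Tdrd1) and 93.8% to 97.0% (the other 5), while the class has a median of 5.08%.

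Sycp3 fell in the intermediate class of CpG content, whose median was 26.8% and of which 32.5% stood at 50% or more in all 4 files. Piwil1 and Tex101 were CpG-poor at the 5' end of their gene records. The CpG-poor class was methylated as a rule, with a median of 84.6% and 87.1% at 50% or more in all 4 files, so that the level of Tex101 (84.1%, percentile 48.2 of its class) was ordinary for it. The principal transcripts of both genes begin elsewhere, 33650 bp into the record for Piwil1 and 4625 bp into it for Tex101, and these starts were of the intermediate class.

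Among the members that act on RNA in germ cell granules, Ddx4 (ENSMUSG00000021758, chr13:112598333-112652475), the VASA helicase, was methylated at 95.9% in female B, 97.4% in female T, 96.2% in male B and 95.8% in male T cells. All 87 of its CpGs within 1 kb of the start stood at 80% or more when the reads of the 4 files were added. Mael (ENSMUSG00000040629, chr1:166201201-166238747), the maelstrom protein of the piRNA pathway, was methylated at 93.3%, 93.8%, 93.7% and 94.5% in the same order. The highest and lowest file differed by 1.59 points at Ddx4 and 1.15 points at Mael.

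Tdrd1 (ENSMUSG00000025081, chr19:56826209-56870012), a tudor domain protein that binds PIWI proteins, was the least methylated of these at its start. It stood at 81.6% in female B, 77.9% in female T, 77.0% in male B and 74.3% in male T cells. Both female files stood above both male files, and the sex difference of 4.04 points had an unadjusted p of 0.0505 and an adjusted p of 0.998 in the quasi-binomial model. The partial level lay at the start itself: the 22 CpGs from -100 to 110 bp stood at 63.7%, 62.2%, 63.8% and 59.0%, while the 10 CpGs further upstream in the window averaged 88.3% and the 31 further downstream 85.7%. These limits were set after the CpGs had been seen. No CpG of the Tdrd1 window was at 20% or less, and the lowest, 28 bp into the gene, was at 39.7%. Sums of reads at single CpGs do not tell whether some cells or some alleles were free of methylation or each molecule was partly methylated, and these cannot be told apart here.

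Piwil1 (ENSMUSG00000029423, chr5:128702524-128755474), the PIWI protein MIWI that carries piRNAs in the testis, stood at 90.5%, 89.9%, 91.0% and 93.9% at the 5' end of its gene record, over 21 CpGs. The 95% Wilson interval of the first of these values, with the fewest reads of any member (325), ran from 86.8% to 93.2%. At the principal start it stood lower, at 83.1%, 81.2%, 85.7% and 83.6% over 51 CpGs. Just before this start the 5 CpGs from 120 to 60 bp upstream stood at 67.6%, 62.2%, 63.0% and 61.1%, with limits again set after the CpGs had been seen. Unlike at Tdrd1 the level was not low at the start alone. It averaged 73.9% from 250 bp to 1 kb downstream of the principal start and 43.2% from 1 to 3 kb upstream. Within 250 bp of the principal start Tdrd1 averaged 70.3% and Piwil1 79.8%, and the other 8 members stood at 91.3% or more.

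Dazl (ENSMUSG00000010592, chr17:50279395-50293636) encodes an RNA-binding protein that controls translation in germ cells. Its 2 kb window gave intermediate levels of 53.2% in female B, 54.1% in female T, 63.4% in male B and 54.9% in male T cells, but few of its CpGs were intermediate. Of 137 CpGs, 80 stood at 80% or more and 51 at 20% or less when the reads of the files were added.

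The methylated and unmethylated CpGs at Dazl were set apart by position. The 82 CpGs from 839 bp upstream to 488 bp downstream of the start were methylated at 96.3%, 95.8%, 96.7% and 96.6%. The next 55 CpGs, from 507 to 971 bp downstream, stood at 4.68%, 3.43%, 4.02% and 1.93%. Between neighbouring CpGs at 488 and 507 bp the level in the reads of the 4 files together went from 94.0% to 31.5%. It then declined over the next CpGs, and from 578 to 971 bp no CpG was above 6.78%. The CpG at 488 bp is the one in the letters atggCGggc of the sequence printed above, and the CpG at 507 bp the one in acctCGggc.

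The step lies inside intron 1 of the principal Dazl transcript, whose first exon ends 229 bp into the gene. The unmethylated stretch ran from 507 to 1106 bp (chr17:50292530-50293129, 59 CpGs, 3.59% of added reads) and holds the start of a second annotated protein-coding transcript, Dazl-204, at position 50292892. Within 250 bp of that start the level was 4.68%, 3.43%, 4.02% and 1.93% in the 4 files. It was the only 1 of 26 annotated member transcript starts with 3 or more CpGs nearby that stood at 20% or less in all 4 files, and the other 25 stood at 50% or more.

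**Figure D2:**
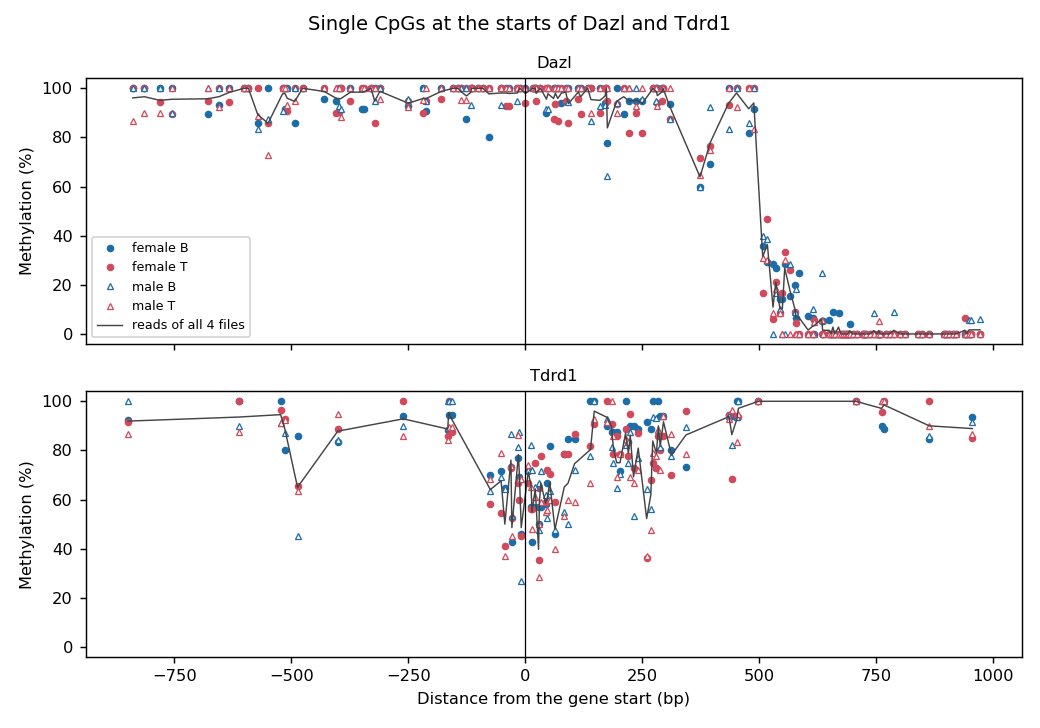
Methylation of single CpGs (y axis, %) by distance from the gene start in bp (x axis, downstream to the right) at Dazl and Tdrd1. Circles are female and open triangles male files, blue is B and red T cells, and the line joins the levels of the reads of all 4 files; Dazl drops between 488 and 507 bp, while Tdrd1 dips to 39.7% near its start without reaching 0.

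A split of this kind was looked for after it had been seen at Dazl. Of 73 CpG-rich promoters at 80% or more within 250 bp of the start in all 4 files, 21 stood at 30% or less from 250 bp to 1 kb downstream in all 4 files. The 73 included 6 members, and Dazl was the only member among the 21. Tex15, a meiosis gene of the wider lists, was another of the 21 and is named after its values were seen.

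The members of the meiotic chromosome axis and synaptonemal complex were methylated throughout their promoters. Sycp1 (ENSMUSG00000027855, chr3:102818499-102936100), the transverse filament of the synaptonemal complex, stood at 94.6%, 95.3%, 96.4% and 93.8%, with 97 of its 100 CpGs at 80% or more in the added reads. Sycp3 (ENSMUSG00000020059, chr10:88459569-88473236), of the lateral elements of that complex, stood at 96.3%, 94.8%, 94.2% and 95.1%. Hormad1 (ENSMUSG00000028109, chr3:95559677-95587671), a HORMA domain protein on unsynapsed axes, stood at 94.7%, 95.2%, 95.6% and 95.5%. The B and T cell files overlapped at each of the 3 genes, with at most 2.61 points between the highest and the lowest file.

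Stk31 (ENSMUSG00000023403, chr6:49395604-49469501), a testis protein with tudor and kinase-like domains, had the highest level of the 10 at 96.8%, 97.0%, 96.6% and 97.5%. All 61 of its CpGs stood at 80% or more in the added reads. Tex101 (ENSMUSG00000062773, chr7:24668007-24676675), a glycoprotein on the surface of germ cells, stood at 81.8%, 86.6%, 84.2% and 83.8% at the 5' end of the gene record, over 22 CpGs. At its principal start the level was higher, at 89.7%, 92.0%, 90.04% and 90.1% over 44 CpGs.

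**Figure D3:**
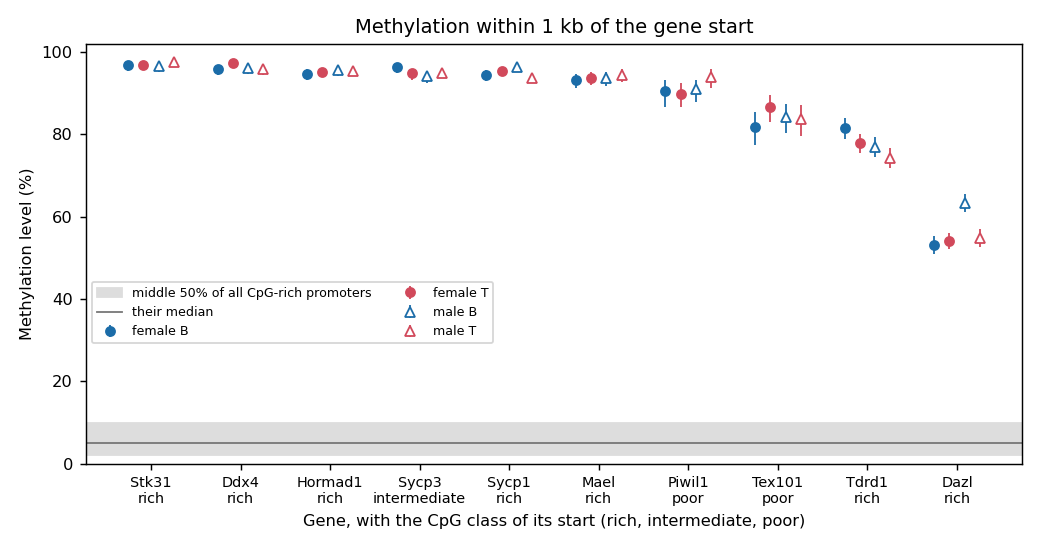
Methylation level within 1 kb of the gene start (y axis, %) for the 10 members (x axis, with the CpG class of the start) in the 4 files, with 95% Wilson intervals that cover counting error only. The grey band is the middle 50% of all CpG-rich promoters (2.21% to 9.98%) with their median as a line; all 40 member values lie above it, between 53.2% and 97.5%.

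No promoter of a member was called between B and T cells. The B minus T differences lay between -2.15 points (Tex101) and 3.77 points (Dazl), with a median of -0.38 points, and 0 of 10 were called in the quasi-binomial model with dispersions moderated by limma, where 0.915% of all promoters were called (adjusted p under 0.05 and 20 points or more). None of the 10 had an unadjusted p under 0.05, where 14.3% of all promoters did, and neither limma on log ratios nor Fisher's exact test, taken within each sex, called any. The smallest adjusted p was 0.48, for Tdrd1. Over all promoters the median difference was 0.15 points. Each cell type and sex had 1 file for its 2 samples, so differences of a few points could not be set against the spread between replicates.

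Between the sexes the promoter differences lay between -5.54 points (Dazl) and 4.04 points (Tdrd1), female minus male, with a median of -0.15 points. No member was called in the quasi-binomial model. Of the 20255 autosomal promoters 0% were called and 4.67% had an unadjusted p under 0.05. Dazl was the 1 member with an unadjusted p under 0.05 (0.0335, adjusted p 0.998), and limma and Fisher's exact test called no member. Within each stretch of Dazl the files stood close together, as given above, and the male B cell file held 64.1% of its Dazl reads in the methylated stretch against 52.9% to 56.0% in the other 3 files. The B minus T difference at Dazl was -0.93 points in females against 8.47 in males, and these differed by a binomial test of counting error (adjusted p 0.000832), which Dazl and Sycp1 (adjusted p 0.0456) passed among the members and 8.05% of all promoters passed. Neither passed within 250 bp of the start (adjusted p 0.335 for Dazl, with the sign turned, and 0.302 for Sycp1, whose difference of differences was -3.71 points there and -3.37 points within 1 kb) or with a minimum of 10 reads (0.530 and 0.679). With each CpG counted once, the 4 Dazl levels stood at 59.8%, 58.7%, 59.4% and 59.1%.

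Methylation at these starts was mostly not lower than in the DNA around them. At 7 of the 10 members, and 5 of the 7 CpG-rich ones, the level within 250 bp of the start was above that from 1 to 3 kb on both sides in all 4 files, while 11.3% of 18812 promoters of all classes and 1.36% of 10617 CpG-rich ones showed this. The CpG-rich class had a median of 0.346% within 250 bp of the start and 77.5% in the flanks, and its 7 members had medians of 95.6% and 91.3%. A start can stand above methylated flanks only where it is methylated itself, and the members were chosen with earlier results known. The contrast is therefore a description that in part restates this choice. Other methylated CpG-rich starts were not compared apart. At Tdrd1 the order was the opposite, with 70.3% near the start and 92.7% in the flanks. At the 5' end of its gene record Tex101 stood at 80.8%, 86.3%, 84.5% and 83.0% near the start and at 84.7%, 87.3%, 85.5% and 87.1% in the flanks. At its principal start the order turned in all 4 files. There it stood at 91.2%, 93.5%, 90.7% and 89.9%, with 87.1%, 86.6%, 88.2% and 87.7% in the flanks. Ddx4 was above its flanks in 3 of the 4 files. At Sycp3 the flanks stood below the start, at 83.5% against 95.4%, and at Piwil1 at 77.3% against 87.1%.

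**Figure D4:**
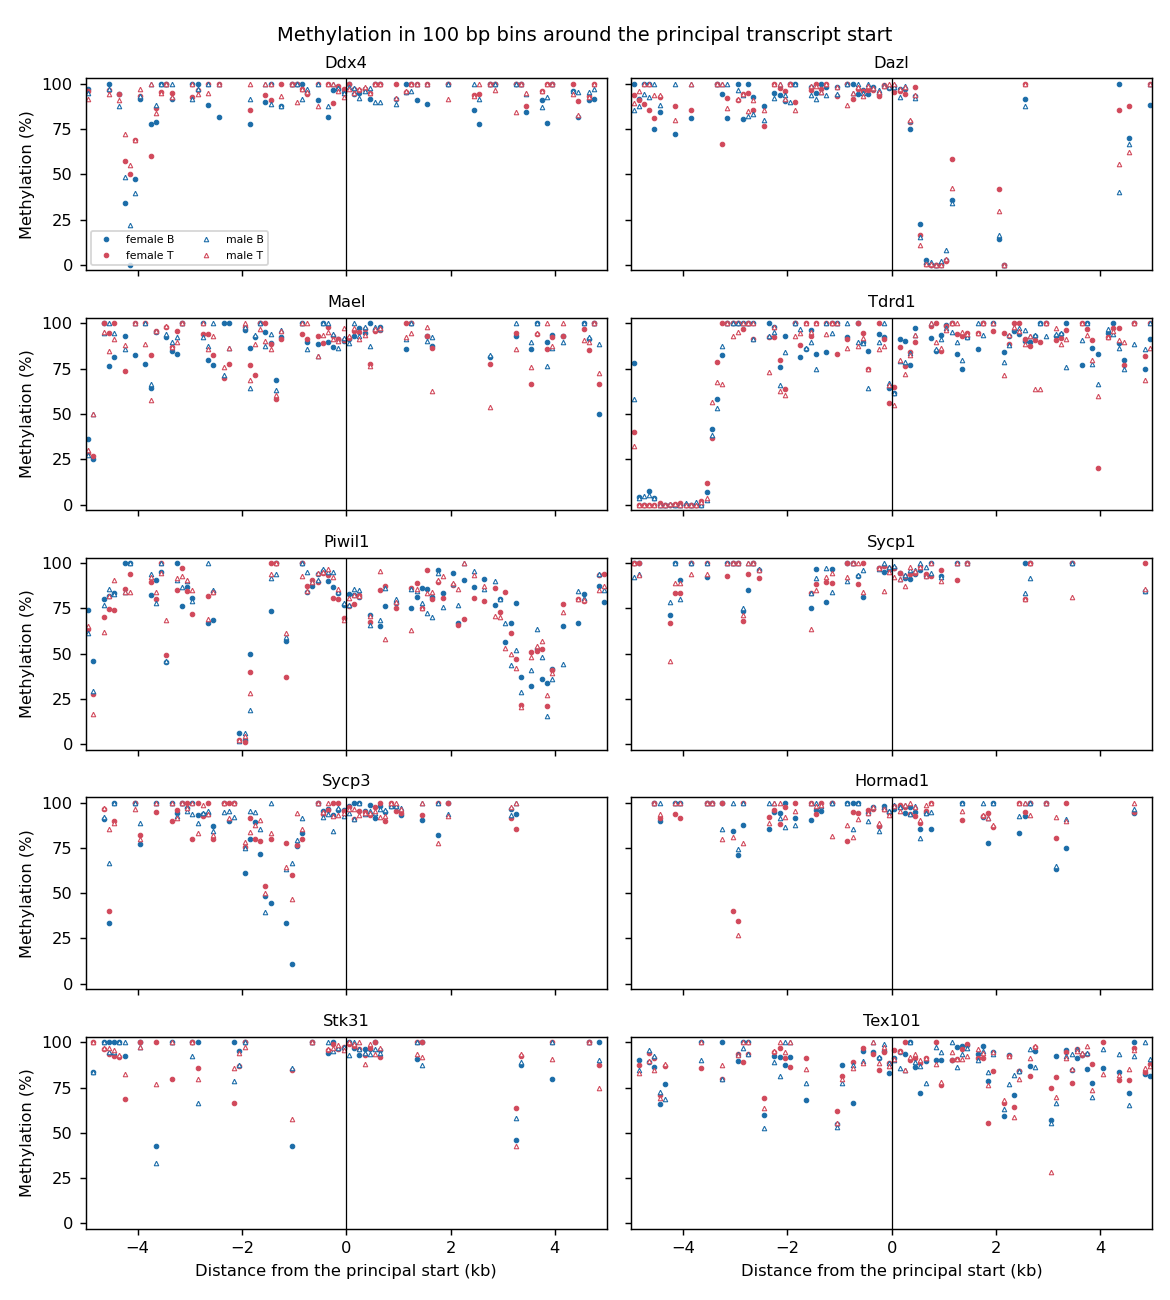
Methylation in bins of 100 bp (y axis, %) by distance from the principal transcript start in kb (x axis, downstream to the right), in 1 panel per gene, with circles for female and open triangles for male files, blue for B and red for T cells. Bins without a measured CpG are left out; Dazl falls to near 0 inside the gene, Tdrd1 is near 0 far upstream, around the start of Ccdc186, and dips at its start, and Piwil1 is near 0 in a short stretch upstream.

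How far the methylated stretch reached was measured by a running mean of the levels of 5 neighbouring CpGs. It was followed out from the gene start up to the first run with a mean under 50% in every file. Extents from other genes were not measured, and the autosomal level was 79.5% to 80.7%. Whether the extents were longer than at other methylated starts was therefore not tested. Of the 20 sides of the 10 genes, 17 had such an end within 50 kb, and the median extent was 24.1 kb with the other 3 sides set at 50 kb. Sycp1 had no end within 50 kb on either side, and Stk31 none downstream. The shortest extents were 488 bp downstream at Dazl, and 1425 bp downstream and 1654 bp upstream of the CpG-poor 5' end of Piwil1. From the principal start of Piwil1 the extents were 1455 bp upstream and 3285 bp downstream. Single extents depended on the length of the run. With means over 10 CpGs the upstream extent went to 17826 bp at Piwil1, 14356 bp at Mael (from 4895 bp) and 37127 bp at Dazl (from 16739 bp), and Ddx4 downstream (16812 bp) and Tex101 upstream (38376 bp) had no end within 50 kb. The downstream extent at Dazl was then 451 bp.

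The first runs with a mean under 20% in every file were mostly near the start of another gene. There were 13 such ends, and 8 of them, at 6 members, lay within 1 kb of the annotated start of another gene. Upstream of Tdrd1 the methylated stretch ended 3477 bp from the start, 542 bp from the start of Ccdc186. Upstream of Ddx4 it ended at 7679 bp near Slc38a9, an amino acid transporter gene, and upstream of Mael at 15043 bp near Ildr2. Hormad1 was bounded on both sides, at 32530 bp near Ctss, the gene of cathepsin S, and at 28582 bp near Golph3l. Stk31 ended upstream at 27429 bp near Fam221a, Sycp3 downstream at 43751 bp near Chpt1, and Tdrd1 downstream at 47706 bp near Vwa2. The end downstream of the Dazl start, at 544 bp, was the 1 such end within 1 kb of the start it was measured from. The upstream end at Sycp3, 38557 bp out, had 0% in both B cell files and 17.8% and 16.2% in the T cell files of females and males. The remaining ends lay 16875 bp upstream of Dazl, 13649 bp downstream of Tex101 and 31114 bp downstream of Piwil1. From the principal start of Piwil1 the ends were 1838 bp upstream and 33156 bp downstream, the latter 194 bp from the start of Gm42875.

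Tdrd1 and Ccdc186 start on either side of one of these edges. In the unmethylated stretch with its near edge 542 bp from the start of Ccdc186 (chr19:56821247-56822732, 106 CpGs) the 4 files stood at 2.12%, 0.705%, 1.20% and 1.02%. From 1 to 3 kb upstream of Tdrd1 the mean level was 91.4%.

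Gene bodies, from 1 kb after the start to the gene end, were methylated in all 10 members. The lowest was Dazl, at 72.4%, 74.7%, 69.4% and 77.6% over 38 CpGs, and the other 9 stood at 82.5% or more in every file. The highest was Sycp3, at 95.6%, 95.5%, 96.0% and 95.4%. The median over the members was 89.6%, and over all gene bodies it was 87.3%, so the bodies of the members stood near those of other genes.

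No gene body of a member was called between B and T cells, where 0.595% of all gene bodies were called. The differences lay between -5.27 points (Dazl) and 1.51 points (Tdrd1). For 2 members the adjusted p was under 0.05 with a difference far below 20 points: Ddx4 differed by -1.95 points, lower in B cells (adjusted p 0.0465) and Tdrd1 was higher in B cells by 1.51 points (adjusted p 0.0378), the same direction in both sexes in each case. Of all gene bodies, 19.03% had an adjusted p under 0.05. Both members lost it with a minimum of 10 reads (adjusted p 0.0517 for Ddx4 and 0.0555 for Tdrd1) and whichever file was left out (0.0901 to 0.181 for Ddx4 and 0.0936 to 0.157 for Tdrd1). Between the sexes the differences lay between -0.51 and 0.51 points, no member had an unadjusted p under 0.05, and 0% of the autosomal gene bodies were called, with 5.58% at an unadjusted p under 0.05.

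Along the genes and 5 kb to either side, 412 windows of 1 kb were measured. In 323 of them all 4 files stood at 80% or more, and in 6 all 4 stood at 20% or less, which were the window inside Dazl, 2 windows at Ccdc186, 1 at Vwa2 and 2 at Golph3l. Between B and T cells 4 windows were called, or 0.971% of the 412, against 2.08% of all 2018320 windows. Between the sexes 0 were called against 0.00103% of autosomal windows, and 24 of the 412 had an unadjusted p under 0.05 in the quasi-binomial model, as did 4.63% of all autosomal windows.

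The 4 called windows lay away from the promoters. In Mael, 34.2 kb into the gene (chr1:166204001-166205000, 5 CpGs), the level was 4.23% in female B, 38.5% in female T, 11.7% in male B and 54.3% in male T cells, with 60 to 94 reads per file. The B minus T difference was -38.4 points (adjusted p 1.07e-09). The Mael promoter itself stood at 93.3% to 94.5% in all 4 files.

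Ddx4 held 2 called windows with opposite directions. The one 32.0 kb into the gene (chr13:112620001-112621000, 7 CpGs) stood at 49.1% and 53.8% in the female and male B cell files and at 85.6% and 82.0% in the T cell files, a difference of -32.3 points (adjusted p 2.79e-07). The one 16.0 kb into the gene (chr13:112636001-112637000, 6 CpGs) stood at 79.2% and 84.2% in B cells and at 45.6% and 56.8% in T cells, a difference of 30.5 points (adjusted p 1.47e-05). The whole Ddx4 body differed by -1.95 points.

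The Hormad1 window lay 3.2 kb upstream of Hormad1 (chr3:95556001-95557000, 7 CpGs). It stood at 84.2% and 87.3% in the female and male B cell files and at 66.7% and 62.5% in the T cell files, higher in B cells by 21.2 points (adjusted p 0.00403). The call was lost without the male B cell file (adjusted p 0.105) and without the male T cell file (adjusted p 0.0752). The Hormad1 promoter itself stood at 94.7% to 95.6% in all 4 files.

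**Figure D5:**
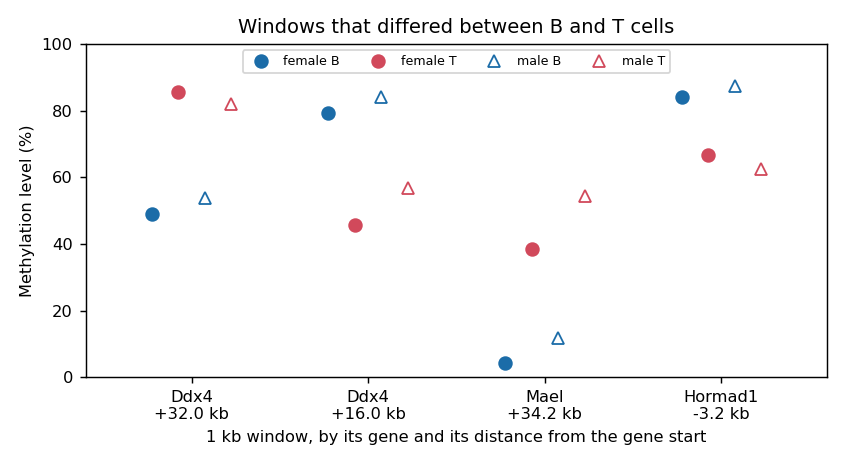
Methylation level (y axis, %) in the 4 files for the 4 windows of 1 kb in or near a member that were called between B and T cells (x axis, gene and distance of the middle of the window from the gene start in kb). Blue is B and red T cells, with circles for female and open triangles for male files; the B cell files stand below the T cell files in 2 windows, at Mael and 32.0 kb into Ddx4, and above them in the other two.

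The letters of the promoters were searched on both strands of the RefSeq sequences for CACGTG (E-box), GCGGGA (the core of an E2F site) and TGACGTCA (cyclic AMP response element), of which the first and the last share the letters ACGT. All 10 members had a RefSeq promoter. The E-box was present in 8 members (Mael, Hormad1, Sycp1, Piwil1, Stk31, Sycp3, Ddx4 and Tdrd1), and in 7.15% of all 32851 RefSeq promoters and 10.5% of those of CpG-rich genes. GCGGGA was present in 5 members (Mael, Hormad1, Sycp1, Sycp3 and Ddx4) in 19.98% of all promoters and in 39.5% of those of CpG-rich genes, and TGACGTCA in 0 members and in 1.79% of all promoters. In the sequences printed above the E-box is written caCGtg, and the Stk31, Ddx4, Sycp1 and Tdrd1 promoters each hold it. Of 82 CpG-rich genes with a RefSeq promoter and 50% or more in all 4 files, members included, 34.1% held an E-box, 30.5% held GCGGGA and 1.22% held TGACGTCA, against 10.5%, 39.5% and 3.37% of the promoters of all CpG-rich genes.

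The E-box holds a CpG, so that its own level was measured. In the 8 members with an E-box in the RefSeq promoter the level of that CpG in added reads was 98.5% in Stk31, 92.6% in Sycp1, 90% and 94.7% in Sycp3, 87.8% in Ddx4, 82.9% and 78.0% in Hormad1 and 79.2% in Mael. It was lower in the members with a partial start, at 61.3% and 45.0% in Piwil1 and 48.6% in Tdrd1. These E-box CpGs of Piwil1 and Tdrd1, in the RefSeq promoters, lie inside the partly methylated stretches given above. The limits of those stretches were set after the CpGs had been seen, so the lower level is not a separate result. Reads per file at the E-box CpGs of the 8 members numbered from 7 to 27.

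Dazl had no E-box in its RefSeq promoter, but held 2 within 1 kb, at 529 and 549 bp downstream of the start. Both lie in the unmethylated stretch and both are in the sequence printed above. Their CpGs stood at 10.9% and 10.3% in added reads. This wider search was made after the Dazl step had been seen.

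The other germ cell genes of the lists included starts at both ends of the scale. Of 18 further genes of the piRNA pathway and tudor family, 13 stood at 50% or more in all 4 files, from Asz1 (95.8%), Mov10l1 (95.2%) and Tdrd12 (94.7%) down to Tdrd5 (12.5%), Tdrkh (10.8%) and Ddx25 (5.12%). Of their 7 CpG-rich promoters 2 stood at 50% or more, where all 7 CpG-rich members, chosen with earlier results known, did. Of 28 further meiosis genes 13 stood at 50% or more, with Tex12 (96.6%), Brdt (96.2%) and Msh4 (95.9%) highest and Ythdc2 (5.91%), Mei4 (3.24%) and Msh5 (1.74%) lowest. Of their 15 CpG-rich promoters 4 did so. Measured at the principal transcript start, 16 of the 28 meiosis genes stood at 50% or more, and 6 of 15 CpG-rich ones, while 12 of the 18 piRNA and tudor genes did.

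Of 12 genes of late sperm formation 10 stood at 50% or more, all at starts that were not CpG-rich. Odf1 (94.7%), Tnp1 (92.3%) and Ldhc (91.5%) were highest and Zpbp (7.34%), Crisp2 (53.1%) and Tnp2 (55.8%) lowest. Tnp2, a transition protein of sperm chromatin, was the 1 gene of the germ cell and pluripotency lists with a called promoter, at 64.8% and 70.9% in the female and male B cell files and 40.7% and 46.9% in the T cell files (adjusted p 0.00146). Below 20 points, Henmt1 (17.6 points, adjusted p 0.000962) and Spo11 (12.4 points, adjusted p 0.00119) were higher in B cells in the quasi-binomial model. Terb1 was lower in B cells (-6.61 points, adjusted p 0.0404). Of all 21082 promoters, 657 had an adjusted p under 0.05. At its principal start Spo11 stood at 92.1% to 94.4% in the 4 files, with an adjusted p of 0.636. Of 15 pluripotency genes 11 stood at 50% or more, with Dppa5a (95.9%), Tcl1 (93.4%) and Dppa2 (93.3%) highest and Utf1 (7.57%), Sox2 (3.67%) and Lin28a (3.15%) lowest. At the principal start 8 of the 15 did, with Esrrb at 8.95% (57.1% at the gene start) and Fgf4 at 10.1% (63.7%), both named after their values were seen. Of 13 broadly expressed genes 11 stood at 20% or less in all 4 files, with Polr2a (0.26%), Rpl13a (0.70%) and Tubb5 (1.15%) lowest and Rplp0 (14.1%) highest among them. Gapdh averaged 19.4%, with 27.1% in female T cells, and Ywhaz averaged 87.3%. The 5' end of the Ywhaz record was CpG-poor, and its principal start stood at 0.110%.

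In the germ cell lists with the members, 30 promoters were CpG-rich and 13 of them stood at 50% or more in all 4 files. Among the 99 CpG-rich promoters at that level in all, these 13 were 7 members, 4 genes of the meiosis list and 2 of the piRNA and tudor list.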

How the data were processed

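Spleen B and T cells were sequenced after bisulfite conversion (8 samples, 4 groups of 2, 1 deposited file per group). Whether a file holds both samples was not stated, though each file name carries the number of 1 sample of its group. Per the labels' processing notes, Trim Galore, FastQC and Bismark 0.13.1 were used with mm10. In the deposited files the fraction is methylated over all reads at a CpG with both strands joined, and the coverage is a count of reads, never under 5. Methylated reads were the fraction times the coverage, rounded. Bisulfite reads 5-methylcytosine and 5-hydroxymethylcytosine alike.

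CpGs with 5 reads or more in all 4 files and features with 3 such CpGs were used. Each kind of feature was fitted by logistic regression with quasi-binomial errors and terms for cell type and sex, on 1 residual degree of freedom, with dispersions moderated by squeezeVar of limma 3.58.1 (R 4.3.3) and Benjamini-Hochberg adjustment over all features. In windows the moderation gave every feature the same dispersion (1.31), so their p-values rest on an average spread. The cell type by sex test and the intervals cover counting error only. Among all promoters limma on log ratios called 151 between B and T cells, against 193 in the main model. Whether either would find a change at starts as highly methylated as most members was not tested. The absence of a call there therefore says little.

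Named genes were the 10 members and, per other list, the 3 lowest, the 3 highest and those called. Tex15, Esrrb, Fgf4, Henmt1, Spo11 and Terb1 fall outside this rule and were named after their values were seen. Members and lists were chosen with earlier results of these data known. Alternatives changed the minimum reads, region width, start, test and threshold, or left out a file.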

Additional observations from a re-analysis of the deposited data

Results flagged for a closer look

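For 2 members the B minus T difference at the promoter differed between females and males, in a binomial test that covers counting error only and that 8.05% of all promoters passed. At Dazl it was -0.93 points in females against 8.47 in males (adjusted p 0.000832). The male B cell file held 64.1% of its Dazl reads in the methylated stretch, against 52.9% to 56.0% in the other files. The difference of the differences was -9.40 points over reads and 0.72 points with each CpG counted once. Within the methylated stretch it was 0.44 points and within the unmethylated stretch -0.85 points. At Sycp1 it was -0.76 points in females against 2.61 in males (adjusted p 0.0456), with all 4 files between 93.8% and 96.4%. Neither call held within 250 bp of the start (adjusted p 0.335 for Dazl and 0.302 for Sycp1, where the difference of the differences was -3.71 points against -3.37 points within 1 kb) or with a minimum of 10 reads (0.530 and 0.679).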

How the results depend on the processing

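With 2 kb to either side of the start the median of the member promoters was 91.7%, and with a minimum of 10 reads Dazl stood at 48.7%, below 50%. Dazl also moved with the width, to 97.2% within 250 bp and 61.4% within 2 kb, as did Tdrd1, to 70.3% and 83.0%. At a threshold of 10 points in place of 20, 424 promoters, 470 gene bodies and 84435 windows were called between B and T cells and 220 windows between the sexes. Windows of 500 bp gave 73130 calls between B and T cells. Leaving out 1 file gave 35 (without the male B cell file) to 53 (without the female B cell file) promoters called between B and T cells, against 193 with all files, and 0 windows between the sexes, whichever file was left out. With a minimum of 10 reads 7 windows were called between the sexes, and the cell type by sex test passed 1015 promoters, against 1697. With 2 kb to either side it passed 3450. These alternatives to the cell type by sex test were chosen after seeing the data. Under it, within 250 bp, the Dazl difference of differences turned to 2.15 points (adjusted p 0.335), and with 10 reads it was -3.38 points (adjusted p 0.530). For Sycp1 the same alternatives gave -3.71 points (adjusted p 0.302) and -1.67 points (adjusted p 0.679). The calls of the windows in Mael and Ddx4 stood under every alternative that gave a value for them (the one 16.0 kb into Ddx4 gave none with 10 reads), with adjusted p up to 0.000430 at Mael and up to 0.00251 and 0.0122 at Ddx4. No member promoter or gene body was called under any of them. The median extent of methylation was 24.1 kb, 35.5 kb with a limit of 20% and 29.97 kb with means over 10 CpGs. Causes of these shifts were not tested. No paired analysis was possible because each group had 1 file and the labels pair no samples across groups. With 1 file per group and 1 residual degree of freedom, differences between pools of the same kind of cell are not known.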
